A study of Homo sapiens with 4 samples.

Results

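The 10 genes described here encode glucose transporters and glycolytic enzymes and were followed in early differentiating human embryonic stem cells. They are SLC2A1 and SLC2A3, which carry glucose across the plasma membrane, the enzymes HK1, HK2, PFKP, ALDOA, GAPDH, PGK1 and ENO1, and the lactate dehydrogenase subunit LDHA. They were chosen by name, as the rows of the expression tables that carry these symbols, and all 10 were found among the 17894 genes listed. All 10 reached a mean level of at least 1 FPKM over the 4 libraries, as did 12697 genes of the whole list. FPKM is the number of fragments scaled for transcript length and for the mapped fragments of the library, so that levels of different genes can be set side by side per length.

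RNA-seq was performed on cells of H1, a human embryonic stem cell line, at day 2 of hematopoietic differentiation on mAGM-S3 stromal cells. All cells were sorted for TRA-1-85, an antigen of human cells, which separates them from the stroma. The control was wild type H1 without added factor, and the treated library was wild type H1 that received 20 ng/mL of R-spondin2 for 1 day, the first of the differentiation. R-spondin2 is a secreted ligand of LGR4 and its relatives that strengthens WNT signaling. The other 2 libraries came from H1 lines of genotype LGR4-/-, without added R-spondin2. They are numbered 1 and 2 in the labels and called clone 1 and clone 2 here. The study found Rspo2 to be the R-spondin gene with the highest expression in mAGM-S3 cells. Cells without added R-spondin2 may therefore have received some from the stroma. Control and R-spondin2 are 1 library each, and LGR4-/- has 1 library for each of its 2 lines. How the lines were derived and which bases of LGR4 were altered is not given in the sources used here. The comparison of R-spondin2 with control asks what added ligand changes at the onset of mesoderm formation. That of the LGR4-/- clones asks what loss of a receptor for it changes.

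LGR4 itself had 21.8 FPKM in the control, 24.3 FPKM with R-spondin2, 7.40 FPKM in clone 1 and 13.95 FPKM in clone 2. Both clones were below the control, but transcripts remained in both. The depth of each library was estimated from the lowest FPKM at 8680000 to 8910000 reads, so that HK2, the lowest of the 10 genes, rests on 844 to 930 implied reads per library.

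Glycolysis splits glucose into pyruvate in the cytosol and yields ATP without oxygen. Hexokinase traps the sugar in the cell, phosphofructokinase commits it to the pathway, and lactate dehydrogenase turns pyruvate into lactate and restores the NAD+ that the GAPDH step uses. Human pluripotent stem cells are known for high glycolytic flux and lactate output, and the use of glucose shifts in a lineage-dependent way when they leave pluripotency. Several genes of the pathway are textbook targets of hypoxia-inducible factors and of MYC.

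GAPDH was the most abundant of the 10 transcripts, with 2748 FPKM in the control, 2510 FPKM with R-spondin2, 2892 FPKM in clone 1 and 2865 FPKM in clone 2. It ranked between 3 and 5 among all 17894 genes in each library. The order of levels in the control was GAPDH, ENO1, ALDOA, LDHA, SLC2A3, PGK1, SLC2A1, HK1, PFKP and HK2. This order was the same with R-spondin2 and in clone 2, and in clone 1 only PGK1 and SLC2A3 changed places. Among neighbours in this order, the ranges over the 4 libraries overlapped for LDHA and SLC2A3 and for SLC2A3 and PGK1, and did not overlap for the other pairs. Summed, the 10 genes made up 1.26% of all FPKM in the control, 1.21% with R-spondin2, 1.22% in clone 1 and 1.22% in clone 2.

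**Figure D1:**
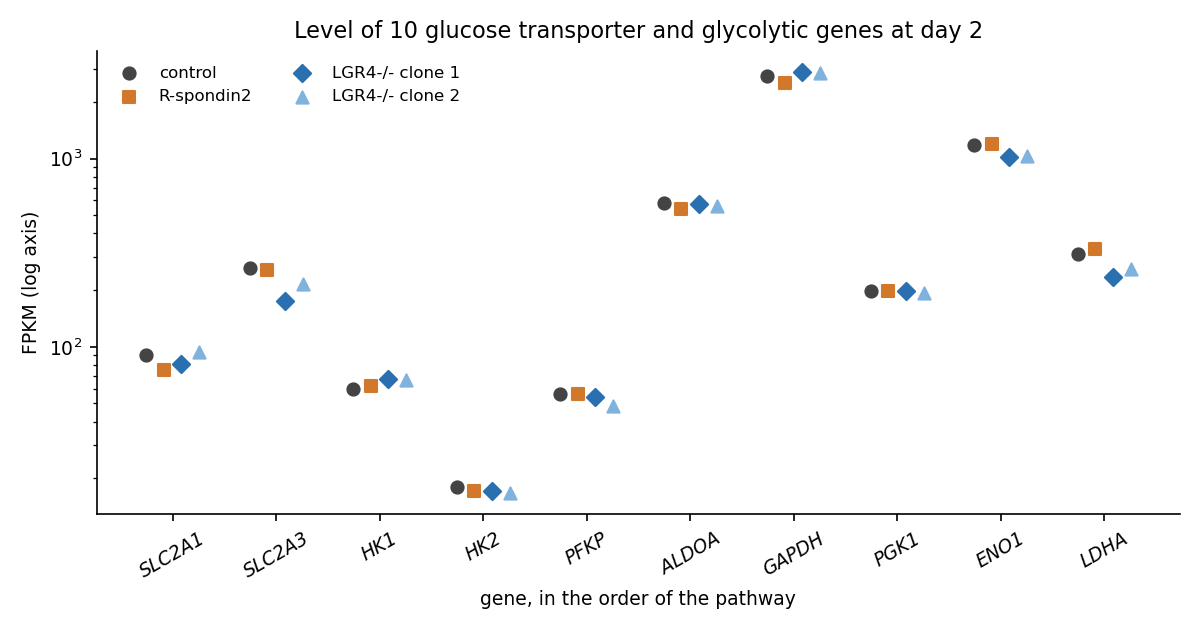
The level of each of the 10 genes, in FPKM on a log axis, is plotted for the control, R-spondin2 and both LGR4-/- clones, 1 point per library. The 4 points of each gene lie close together beside the distances between genes, from 16.65 FPKM for HK2 to 2892 FPKM for GAPDH, with the widest separation at SLC2A3 and LDHA.

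Differences between libraries were taken as log2(FPKM+1), and a gene was called at a difference of 2-fold or more. With R-spondin2, 0 of the 10 genes were called, against 0.221% of the 12697 genes tested. For the LGR4-/- clones, where both had to pass in the same direction, 0 of the 10 were called against 1.32% of genes, and between clone 2 and clone 1 again 0 of the 10 against 0.252%. At 1.5-fold the count was 0 of 10 in each comparison as well, where 2% of all genes passed with R-spondin2, 5.7% in both clones and 2.41% between the clones. With shares this low in all genes, 0 of 10 lies near the background. All comparisons with the control share its single library, and the R-spondin2 comparison, with 1 library against 1, has no p-value and no replicate check.

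The sizes of the differences were small as well. The median absolute difference of the 10 genes with R-spondin2 was 0.06 on the log2 scale, against 0.11 for all genes tested. For the mean of both clones it was 0.11 against 0.15, and between the clones 0.05 against 0.11. Among genes averaging 5 FPKM or more, the medians were nearer, at 0.093 with R-spondin2, 0.126 for the mean of the clones and 0.096 between the clones. The 10 genes are more abundant than most genes tested, and counting error falls with abundance, so that these medians are not matched for level. The signed median was -0.01 with R-spondin2, the same as the -0.01 of all genes, with 5 members higher and 5 lower than control. For the mean of the clones it was -0.07, against 0.02 for all genes, with 2 members higher and 8 lower.

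The only spread within a group label is between the 2 clones. A limma fit over all 4 libraries takes its 1 residual degree of freedom from them and assumes that the single control varies as they do. For LGR4-/- against control, 0 of 12697 genes (0%) and so 0 of the 10 passed a Benjamini-Hochberg adjusted p of 0.05. An unadjusted limma p under 0.05 was reached by 2332 genes, 18.4% of those tested, and by 3 of the 10 genes, SLC2A3, ENO1 and LDHA, all lower in the clones. The labels do not say whether the clones were grown and sorted separately, so that this spread may be partly technical.

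Counting error was narrower than these thresholds. From implied reads, the exact 95% interval of the ratio to control left out 0 for 4 of the 10 genes with R-spondin2, where 18.7% of the genes with enough reads did so. The same held for 6 of the 10 in clone 1 against 38.6% of genes, for 7 of the 10 in clone 2 against 30.3%, and for 5 of the 10 between the clones against 19.8%. These intervals cover counting error only and grow narrow with abundance, and the 10 genes are among the more abundant ones.

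**Figure D2:**
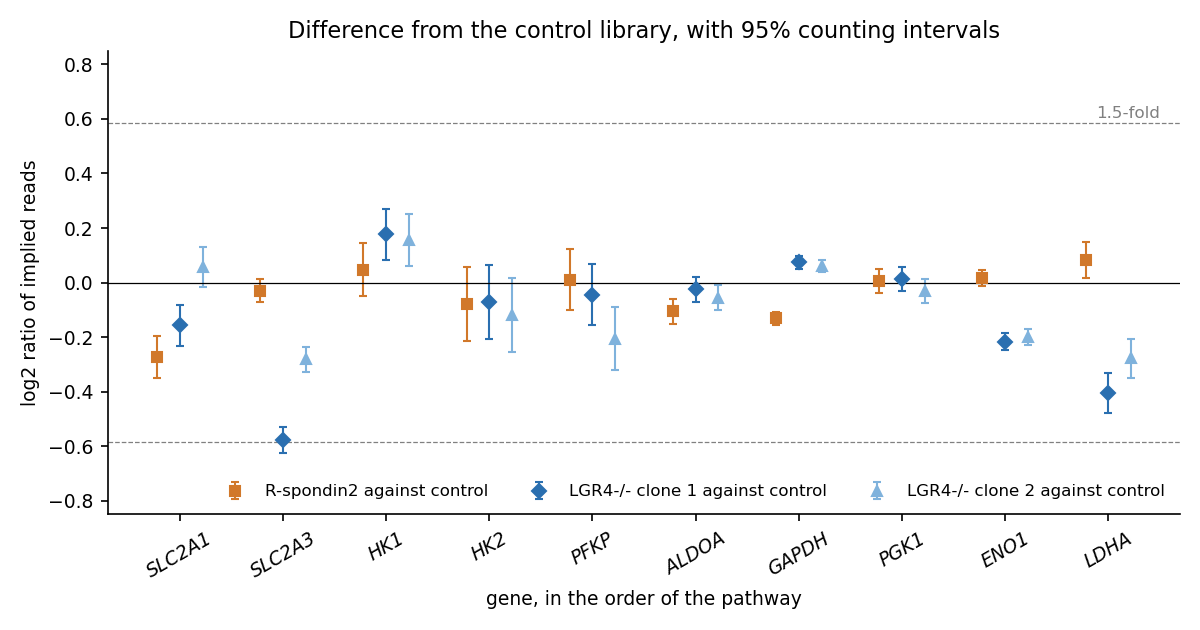
The log2 ratio of implied reads to the control library is plotted for each gene, with exact 95% counting intervals that leave out the variation between cultures. Dashed lines mark 1.5-fold. All points lie inside them, SLC2A3 in clone 1 close to the lower one at -0.58, and SLC2A3, ENO1 and LDHA lie below 0 in both clones.

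Of the transporters, SLC2A3 encodes GLUT3, a transporter of high affinity that is typical of neurons and pluripotent cells. It had 262 FPKM in the control, 257 FPKM with R-spondin2, 176 FPKM in clone 1 and 216 FPKM in clone 2. Both clones lay below both wild type libraries, and R-spondin2 was close to the control. The difference from control was -0.57 in clone 1 and -0.28 in clone 2 on the log2 scale, and -0.03 with R-spondin2. For the clones limma gave -0.43 with a standard error of 0.13 (adjusted p = 0.181), so that the difference did not pass. The clones differed from each other by 0.29 with a counting interval of 0.25 to 0.34 on the log2 scale, about as far as clone 2 lay from the control.

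SLC2A1 encodes GLUT1, the transporter that most cells use for basal glucose uptake. Its level was 90.6 FPKM in the control, 75.0 FPKM with R-spondin2, 81.3 FPKM in clone 1 and 94.2 FPKM in clone 2. The R-spondin2 library was the lowest of the 4, and the clones lay on either side of the control. Its difference with R-spondin2, -0.27 with a counting interval of -0.35 to -0.20, was the furthest from 0 of the 10 in that comparison. The mean of the clones differed from control by -0.05 (limma adjusted p = 0.854). It was 0.05 in clone 2 and -0.16 in clone 1, so that its direction rests on which clone is used.

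The SLC2A3 level was 2.89 times that of SLC2A1 in the control, 3.42 times with R-spondin2, 2.16 times in clone 1 and 2.29 times in clone 2. Together both transporters summed to 353 FPKM in the control, 332 FPKM with R-spondin2, 257 FPKM in clone 1 and 310 FPKM in clone 2. SLC2A14, a close duplicate of SLC2A3, stood at 2.60% to 3.47% of the SLC2A3 level, and reads that match both genes could have been assigned to either one.

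The 5 genes whose 4 values lay nearest to those of SLC2A3, by Euclidean distance of centred log2(FPKM+1) over the 4 libraries among the 9019 genes other than the 10 that averaged 5 FPKM or more, were GAS2L1, DSP, ID2, KHDRBS3 and ARRB1. Their distances ran from 0.046 for GAS2L1 to 0.072 for ARRB1. DSP, the desmosomal protein desmoplakin, had 38.6, 39.5, 26.8 and 32 FPKM in the control, R-spondin2, clone 1 and clone 2 libraries. ID2, an inhibitor of basic helix-loop-helix factors, had 41.1, 41.8, 27.6 and 35.5 FPKM in the same order. With 4 libraries, such likeness is a description only.

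Of the 14 other glucose transporter genes listed, 8 passed the minimum of 1 FPKM, and 0 of these 8 were called at 2-fold in any comparison. SLC2A4, the insulin-responsive transporter GLUT4, was the only one past 1.5-fold with R-spondin2, at 3.07 FPKM in the control and 1.63 FPKM with R-spondin2, and it had 5.12 and 3.28 FPKM in the clones. SLC2A8 had 16.1 FPKM in the control, 16.96 FPKM with R-spondin2, 14.2 FPKM in clone 1 and 13.1 FPKM in clone 2. Their medians were 0.09 with R-spondin2 and 0.08 for the mean of the clones. All 14 summed to between 52.2 and 56.4 FPKM, below the level of SLC2A1 alone in each library.

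In the upper pathway, HK1 encodes the hexokinase found in most tissues, and HK2 an inducible form. HK1 had 59.5 FPKM in the control, 61.5 FPKM with R-spondin2, 67.3 FPKM in clone 1 and 66.3 FPKM in clone 2. Both clones were above both wild type libraries, by 0.17 and 0.15 over control on the log2 scale (limma adjusted p = 0.355). HK2 had 18.1 FPKM in the control, 17.1 FPKM with R-spondin2, 17.2 FPKM in clone 1 and 16.65 FPKM in clone 2. The 3 other libraries were slightly below the control, and each counting interval of HK2 held 0 (limma adjusted p = 0.710 for the clones). HK1 exceeded HK2 by 3.29 times in the control, 3.59 times with R-spondin2, 3.91 times in clone 1 and 3.98 times in clone 2.

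PFKP encodes the platelet isoform of phosphofructokinase, the committed step. It had 55.9 FPKM in the control, 56.3 FPKM with R-spondin2, 54.2 FPKM in clone 1 and 48.5 FPKM in clone 2. Clone 2 stood below the other 3 libraries, by -0.20 from control, while clone 1 was within counting error of it. For both clones together limma gave an adjusted p of 0.587. The liver isoform PFKL was at a like level, 57.5 FPKM in the control, and the muscle isoform PFKM at 24.4 FPKM, so that PFKP was 1 of 3 isoforms present.

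ALDOA encodes aldolase A, which splits fructose-1,6-bisphosphate. It had 584 FPKM in the control, 543 FPKM with R-spondin2, 574 FPKM in clone 1 and 562 FPKM in clone 2. The R-spondin2 library was the lowest, at -0.10 with a counting interval of -0.15 to -0.06, and the clones were at -0.03 and -0.06 from control (limma adjusted p = 0.755). ALDOC, the isoform best known from brain, ran at 3.51% of ALDOA in the control, 3.09% with R-spondin2, 5.63% in clone 1 and 4.59% in clone 2. Its own difference for the mean of the clones was 0.47 (limma adjusted p = 0.206).

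In the lower pathway, GAPDH oxidizes glyceraldehyde-3-phosphate and is often used as a reference for protein and transcript levels. Its levels, given above, placed R-spondin2 lowest and both clones highest. The difference from control was -0.13 with R-spondin2, 0.07 in clone 1 and 0.06 in clone 2 on the log2 scale, each outside counting error (limma adjusted p = 0.500 for the clones). Relative to ACTB, the cytoskeletal actin also used as a reference, GAPDH stood at 0.903 in the control, 0.824 with R-spondin2, 1.00 in clone 1 and 0.982 in clone 2. Among 13 commonly used reference genes, 0 differed by 1.5-fold in any comparison, and their medians were -0.02 with R-spondin2 and -0.0014 for the mean of the clones.

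PGK1, which makes ATP from 1,3-bisphosphoglycerate, varied least of the 10. It had 197 FPKM in the control, 198 FPKM with R-spondin2, 199 FPKM in clone 1 and 193 FPKM in clone 2. The whole range over the 4 libraries was 0.05 on the log2 scale, and each counting interval against the control held 0 (limma adjusted p = 0.962 for the clones).

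ENO1 encodes the main enolase, which makes phosphoenolpyruvate. It had 1186 FPKM in the control, 1199 FPKM with R-spondin2, 1020 FPKM in clone 1 and 1032 FPKM in clone 2. The wild type libraries lay together above the clones, and the clones were within counting error of each other. The difference from control was 0.02 with R-spondin2, -0.22 in clone 1 and -0.20 in clone 2. For the clones limma gave -0.21 with a standard error of 0.05 (adjusted p = 0.126). ENO2, the isoform named after neurons, was in the other direction, with 22.8 FPKM in the control, 18.4 FPKM with R-spondin2, 35.05 FPKM in clone 1 and 27.2 FPKM in clone 2 (limma adjusted p = 0.274). ENO2 therefore made up 1.92% of the ENO1 level in the control, 1.54% with R-spondin2, 3.43% in clone 1 and 2.64% in clone 2.

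LDHA encodes the lactate dehydrogenase subunit that predominates in muscle and in tissues with high lactate output. It had 312 FPKM in the control, 331 FPKM with R-spondin2, 236 FPKM in clone 1 and 258 FPKM in clone 2. Both clones were below both wild type libraries, and the R-spondin2 library was the highest of the 4. On the log2 scale the difference from control was 0.08 with R-spondin2, with a counting interval of 0.02 to 0.15, -0.40 in clone 1 and -0.28 in clone 2. The limma estimate for the clones was -0.34 with a standard error of 0.08 (adjusted p = 0.118), the smallest adjusted p of the 10. Its partner subunit LDHB, which predominates in heart, had 804 FPKM in the control, 778 FPKM with R-spondin2, 845 FPKM in clone 1 and 851 FPKM in clone 2 (limma adjusted p = 0.507). The ratio of LDHB to LDHA was 2.58 in the control, 2.35 with R-spondin2, 3.58 in clone 1 and 3.30 in clone 2. The total of all lactate dehydrogenase transcripts differed from the control by -0.05 in clone 1 and -0.01 in clone 2 on the log2 scale.

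LDHA and ENO1 were lower in both clones, while PGK1 varied least, and the bases before their start sites are shown for these 3 genes. Hypoxia-inducible factors bind a short core that reads ACGTG or GCGTG, and windows of 250 bases before annotated starts were searched for both on both strands. Capitals mark the matches, which read CACGT or CACGC where they lie on the opposite strand. CACGTG, the E-box that MYC and USF factors bind, holds ACGTG on both strands and counts as 2 matches. The sequences are from RefSeq on GRCh38.p14, each given 5′ to 3′ on the strand of its gene.
LDHA promoter, chr11:18394313-18394562, plus strand: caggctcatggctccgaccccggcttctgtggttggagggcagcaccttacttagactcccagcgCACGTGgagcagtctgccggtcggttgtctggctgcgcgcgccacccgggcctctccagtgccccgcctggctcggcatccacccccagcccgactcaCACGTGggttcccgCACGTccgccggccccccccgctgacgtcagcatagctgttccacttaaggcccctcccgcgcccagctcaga
ENO1 promoter, chr1:8878687-8878936, minus strand: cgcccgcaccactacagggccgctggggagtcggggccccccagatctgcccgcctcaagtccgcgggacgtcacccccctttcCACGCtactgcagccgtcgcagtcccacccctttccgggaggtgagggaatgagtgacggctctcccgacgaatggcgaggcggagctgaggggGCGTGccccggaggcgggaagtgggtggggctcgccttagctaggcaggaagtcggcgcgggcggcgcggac
PGK1 promoter, chrX:78103998-78104247, plus strand: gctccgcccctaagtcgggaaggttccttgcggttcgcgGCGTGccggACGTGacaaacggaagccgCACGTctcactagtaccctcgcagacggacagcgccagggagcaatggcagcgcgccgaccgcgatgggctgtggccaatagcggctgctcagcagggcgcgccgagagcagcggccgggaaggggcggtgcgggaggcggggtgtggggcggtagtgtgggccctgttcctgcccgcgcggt

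The LDHA window shown holds 5 matches, and 2 of them are in each CACGTG. RefSeq gives LDHA 2 windows, and the other one, at chr11:18396101-18396350, holds 1 match and 0 CACGTG. The single windows of ENO1 and PGK1 hold 2 and 3 matches. At least 4 matches occur in 3.22% of the 35116 windows of this length before annotated starts, and at least 1 match in 43.2%. CACGTG occurs in 6.34% of them. Windows were found for 9 of the 10 genes, SLC2A3 being the exception. Of their 22 windows, 13 (59.1%) held a match. The most matches, 6 with 2 CACGTG, were in a window of HK2, whose other window holds 3. The 1 window of SLC2A1 holds 0. Whether matches go with differences between the libraries was not tested. A match is a run of letters and does not show that a factor binds there.

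Grouped by enzymatic step, with SLC2A1 and SLC2A3 as the transport step and the listed isoforms of each enzyme summed, most of the 12 steps stayed near the control. In the clones the enolase total was 1064 and 1068 FPKM against 1217 FPKM in the control. The largest departure was pyruvate kinase, the step between enolase and lactate dehydrogenase, for which the 10 genes hold no member. PKM, which supplies nearly all of it, had 939 FPKM in the control, 1044 FPKM with R-spondin2, 564 FPKM in clone 1 and 609 FPKM in clone 2. Its differences from control were 0.15, -0.73 and -0.62, each further from 0 in the clones than those of any of the 10 genes. In limma its adjusted p was 0.0755, with 0.0119 to 0.345 under the other settings tried, so that its call depends on the setting.

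**Figure D3:**
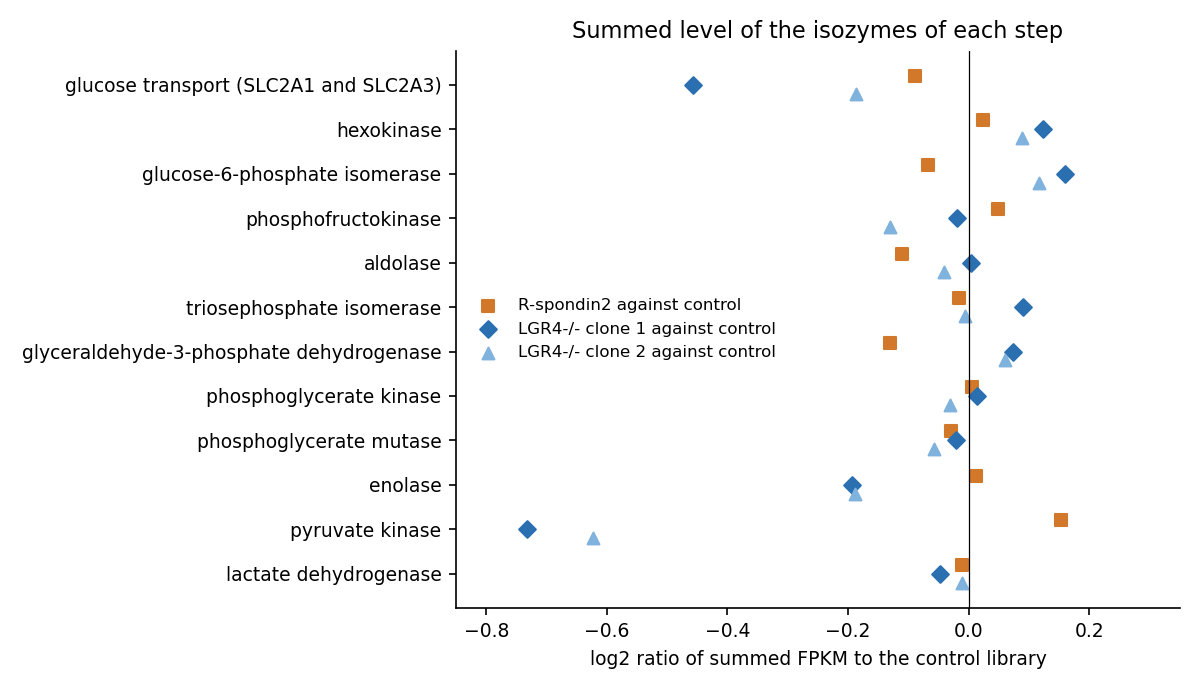
The log2 ratio of summed FPKM to the control library is plotted for each of 12 steps from glucose transport to lactate dehydrogenase, 1 point per library. Pyruvate kinase lies furthest to the left in both clones, at -0.73 and -0.62. Next are glucose transport and enolase, at -0.46 and -0.19 in clone 1 and together at -0.19 in clone 2. Lactate dehydrogenase lies between -0.05 and 0 in all 3 libraries.

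Of the 24 other glycolytic genes listed, 16 passed the minimum of 1 FPKM. PKM was the only one of these past 1.5-fold in both clones, and 0 passed it with R-spondin2. ADPGK, an ADP-dependent glucokinase, had 25.8 FPKM in the control, 28.4 FPKM with R-spondin2, 20.0 FPKM in clone 1 and 22.8 FPKM in clone 2. Phosphoglycerate mutase PGAM1, triosephosphate isomerase TPI1 and glucose-6-phosphate isomerase GPI were within 0.16 of the control in each library. The medians of the 16 were -0.01 with R-spondin2 and 0.06 for the mean of the clones.

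Genes for the handling of pyruvate and lactate numbered 12 of 15 at 1 FPKM or more. SLC16A3 encodes MCT4, the exporter of lactate in highly glycolytic cells, and it was the only one past 2-fold in both clones. It had 19.7 FPKM in the control, 20.9 FPKM with R-spondin2, 7.96 FPKM in clone 1 and 8.74 FPKM in clone 2. The differences were 0.08, -1.21 and -1.09 on the log2 scale, with an adjusted limma p of 0.0755 for the clones and of 0.0119 to 0.341 under other settings. SLC16A1, which encodes the related carrier MCT1, had 128 FPKM in the control, 125 FPKM with R-spondin2, 146 FPKM in clone 1 and 135 FPKM in clone 2. BSG, the chaperone of both carriers, differed by at most 0.18 in any library. In both clones SLC16A3, LDHA and PKM were thus below the control, while SLC16A1 was above it.

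Among regulators of glycolysis, 18 of 22 passed the minimum of 1 FPKM, and 0 of these passed 1.5-fold in both clones or with R-spondin2. HIF1A, the oxygen-regulated subunit of hypoxia-inducible factor 1, had 65.3 FPKM in the control and 65.4 FPKM in both clones, and 60.3 FPKM with R-spondin2. MLXIP, a glucose-sensing transcription factor also known as MondoA, had 20.5 FPKM in the control, 24.15 FPKM with R-spondin2, 12.7 FPKM in clone 1 and 13.4 FPKM in clone 2. TXNIP, an inhibitor of glucose uptake that MondoA induces, had 9.65 FPKM in the control, 12.3 FPKM with R-spondin2, 6.29 FPKM in clone 1 and 5.86 FPKM in clone 2. Both were lowest in the clones and highest with R-spondin2. For the clones the adjusted limma p was 0.0916 for MLXIP (0.0310 to 0.344 under other settings) and 0.114 for TXNIP (0.0621 to 0.355). With R-spondin2 the counting interval was 0.14 to 0.34 for MLXIP, while that of TXNIP, -0.02 to 0.74, held 0. MLXIPL, on the same list, went the other way at low levels, with 1.92 FPKM in the control, 1.35 FPKM with R-spondin2, 3.31 FPKM in clone 1 and 2.23 FPKM in clone 2. MYC had 33.8 to 40.2 FPKM over the 4 libraries, while MYCN had 21.25 FPKM in the control, 14.6 FPKM with R-spondin2, 24.5 FPKM in clone 1 and 23.5 FPKM in clone 2.

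The list of hypoxia response genes was mixed. Of its 24 genes, 21 passed the minimum of 1 FPKM, with 6 higher and 15 lower for the mean of the clones and a median of -0.09, while with R-spondin2 the median was 0.01. BNIP3, EGLN1, EGLN3 and NDRG1, 4 of these 21, were past 1.5-fold lower in both clones, where 5.7% of all genes passed in either direction. BNIP3, a mitophagy receptor, had 62.7 FPKM in the control, 63.6 FPKM with R-spondin2, 37.8 FPKM in clone 1 and 39.95 FPKM in clone 2 (limma adjusted p = 0.0802, with 0.0166 to 0.341 under other settings). EGLN3, a prolyl hydroxylase, had 15.3, 16.5, 7.72 and 8.29 FPKM in the same order (limma adjusted p = 0.0809, with 0.0191 to 0.341 under other settings). ADM, which encodes the peptide adrenomedullin, went the other way, with 22.4 FPKM in the control, 14.15 FPKM with R-spondin2, 32.9 FPKM in clone 1 and 30.5 FPKM in clone 2. With R-spondin2, ADM and ANKRD37 were past 1.5-fold lower, the latter at 2.27 FPKM in the control and 0.86 FPKM with R-spondin2. VEGFA, which encodes an angiogenic growth factor, was furthest from the control with R-spondin2, at -0.25.

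**Figure D4:**
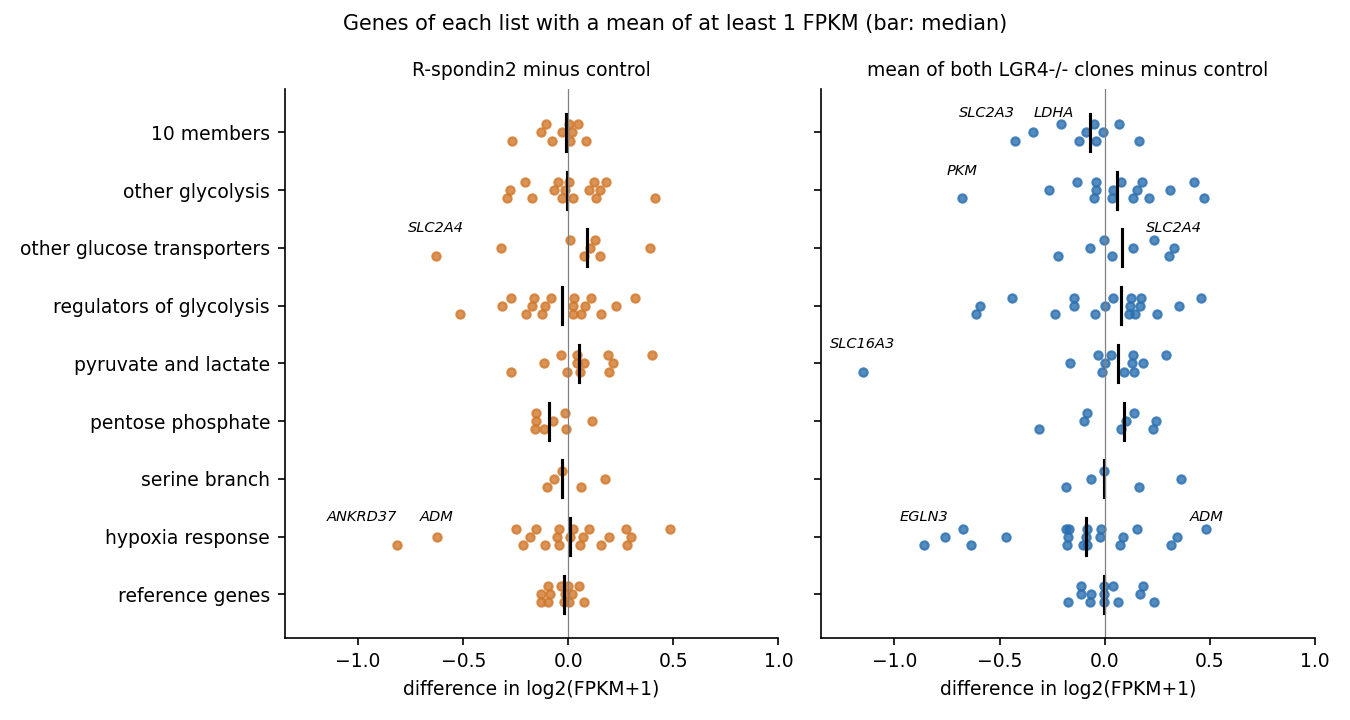
Differences in log2(FPKM+1) from the control library are plotted for R-spondin2 on the left and for the mean of both LGR4-/- clones on the right, 1 point per gene that passed the minimum of 1 FPKM, and a bar at the median of each list. The 10 members lie in a narrow band around a median of -0.01 on the left, and on the right SLC2A3 and LDHA extend to -0.43 and -0.34, with SLC16A3 and PKM further out in neighbouring lists.

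The genes tested in branches off the pathway stayed within 1.5-fold of the control. The furthest for the mean of the clones was PHGDH, at 0.36 on the log2 scale. In the pentose phosphate branch, 8 of 10 genes passed the minimum of 1 FPKM and 0 passed 1.5-fold, with medians of -0.09 with R-spondin2 and 0.09 for the mean of the clones. TKT, the transketolase that links this branch back to glycolysis, had 247 FPKM in the control, 228 FPKM with R-spondin2, 305 FPKM in clone 1 and 279 FPKM in clone 2. All 5 genes of serine synthesis and use were tested, and 0 passed 1.5-fold. PHGDH, which draws 3-phosphoglycerate into serine, had 120 FPKM in the control, 112 FPKM with R-spondin2, 156 FPKM in clone 1 and 154 FPKM in clone 2 (limma adjusted p = 0.0960, with 0.0408 to 0.341 under other settings). In gluconeogenesis, 3 of 8 genes were tested and 0 passed 1.5-fold.

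Markers of cell state differed between the same libraries. All 10 pluripotency markers, POU5F1, NANOG and SOX2 among them, were higher in both clones, with summed levels of 1762 FPKM in the control, 1451 FPKM with R-spondin2, 2806 FPKM in clone 1 and 2606 FPKM in clone 2. All 10 markers of primitive streak and mesoderm were lower in both clones, with 1160 FPKM in the control, 1517 FPKM with R-spondin2, 417 FPKM in clone 1 and 642 FPKM in clone 2. With R-spondin2, 9 of 10 pluripotency markers were lower and 9 of 10 mesoderm markers higher, and 0 markers of either list were at 0 FPKM in any library. The part of these markers in the levels of SLC2A3, ENO1, LDHA, PKM and SLC16A3 was not tested. In such bulk libraries, fewer cells of a type and less RNA per cell cannot be told apart.

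Markers of other cells were measured as well. Endoderm markers summed to 63.4 FPKM in the control, 65.5 FPKM with R-spondin2, 38.7 FPKM in clone 1 and 42.7 FPKM in clone 2. They did not move together. SOX17, with 47.1 FPKM in the control, had 23.6 and 27.2 FPKM in the clones, and APOA1 was lower as well. FOXA2 was higher in both clones, with 9.05 FPKM in the control and 11.9 and 11.6 FPKM in the clones. The remaining endoderm markers averaged under 1 FPKM. Neuroectoderm markers summed to 2.04 to 2.47 FPKM, and endothelial and blood markers to 13.2 to 14.8 FPKM. Fibroblast and stroma markers summed to 238 FPKM in the control, 297 FPKM with R-spondin2, 216 FPKM in clone 1 and 247 FPKM in clone 2, carried mostly by COL1A1, COL1A2 and THY1. In both clones COL1A1 and THY1 were above the control, while COL1A2, LUM and PDGFRB were below it. LUM had 5.49 FPKM in the control, 9.11 FPKM with R-spondin2, 0.16 FPKM in clone 1 and 1.45 FPKM in clone 2. With R-spondin2, LUM and COL3A1 were past 1.5-fold higher, the latter at 4.65 FPKM in the control and 9.86 FPKM with R-spondin2. Of the markers tested in this list, 5 were higher with R-spondin2 and 1, THY1, was lower. The part of the markers of other cells in the levels of the 10 genes was not tested.

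Several of the 10 genes have processed copies elsewhere in the genome. RefSeq names 65 pseudogenes after GAPDH, 6 after LDHA, 4 after ENO1, 3 after SLC2A3, 2 after ALDOA, 2 after PGK1 and 1 after HK2, and none of them has a row in the tables. The levels of these genes are uncertain to the extent that reads of near-identical copies were assigned to them or left out.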

How the data were processed

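RNA-seq libraries of sorted H1 cells at day 2 were analysed, 1 each of control, R-spondin2 and LGR4-/- lines 1 and 2. The authors deposited FPKM for 17894 genes with RefSeq transcripts, already scaled for length and depth and therefore not tested with a count model. The submitters' processing notes name BWA, Bowtie, RSEM and hg19, and versions and filters are not given in the sources used here.

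Differences were taken as log2(FPKM+1), which understates changes of low genes, over 12697 genes averaging 1 FPKM or more. limma 3.58.1 (R 4.3.3), tested on simulated data, was fitted with a trend to 3 groups, two-sided, with Benjamini-Hochberg adjustment over all genes. Other steps used Python 3.11.15 with numpy 2.4.6, pandas 2.3.3, scipy 1.17.1 and matplotlib 3.10.9.

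Reads per library were estimated by searching for the depth that brings FPKM up to 0.6 of transcripts up to 1500 bases nearest to whole reads (within 0.2 reads for 76.3% to 77.7% of values, and for 40.9% to 45.0% with lengths shuffled). Lengths were from GENCODE. Exact (Clopper-Pearson) 95% intervals were given where the implied reads of both libraries summed to at least 20 and each library had some. Implied reads were taken from the shortest listed transcript.

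The 10 genes and the gene lists were chosen with earlier results of these data known. Beside the 10 genes, LGR4 and the 5 genes nearest to SLC2A3, up to 2 of the largest differences in each direction per list and relatives of the 10 genes could be named. EGLN1, BNIP3, HIF1A, MYC, VEGFA, SLC16A1, ACTB, POU5F1, NANOG and COL1A2 were chosen after their values were seen. Alternatives were a pseudocount of 0.1, no filter, a filter of 5 FPKM, rescaling by median ratios, 1.5-fold and leaving out each line.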

Additional observations from a re-analysis of the deposited data

How the results depend on the processing

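The counts of the 10 genes called were 0 at every setting tried: a pseudocount of 0.1, no filter, a filter of 5 FPKM, rescaling of the libraries by median ratios, 1.5-fold in place of 2-fold and, for LGR4-/-, either clone alone. The medians with R-spondin2 and in the clones moved by less than the spread, furthest under rescaling, to -0.0014 with R-spondin2 and -0.09 in the clones. The latter was -0.08 without clone 1 and -0.06 without clone 2. Of the 10 genes, 2 changed sign when 1 clone was left out, SLC2A1 (0.05 without clone 1) and PGK1 (0.01 without clone 2). Rescaling moved 4 values for the mean of the clones by more than the spread between the clones, to 0.14 for HK1, -0.06 for ALDOA, 0.04 for GAPDH and -0.23 for ENO1. Over all genes, limma called 0 genes at the settings reported and with a pseudocount of 0.1, 0 of 17894 without a filter, 497 of 9029 with the filter of 5 FPKM and 88 of 12688 after rescaling. The smallest adjusted p of the 10 genes was 0.118 as reported, and 0.135, 0.358, 0.0546 and 0.0905 at these alternatives in turn. With the filter of 5 FPKM, PKM, SLC16A3, BNIP3, EGLN3, MLXIP and PHGDH passed the adjusted threshold, and the first 2 also after rescaling. They were not singled out, since markers of cell state passed with this filter as well, POU5F1, NANOG, SOX2 and HAND1 among them. POU5F1, NANOG and SOX2 passed after rescaling too. limma could not be fitted without 1 clone, since no residual degree of freedom is left. No paired analysis was possible, since control and R-spondin2 have 1 library each and the labels name no pairs. With 1 library of control and of R-spondin2, variation between cultures is unknown for both.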
